A study of Homo sapiens with 4 samples.

Results

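The U937 only intronic distal peaks are ZNF217 CUT&Tag peaks called in the AML line U937. No MV4-11 peak overlapped them by even 1 bp, and their midpoints lay inside protein-coding genes but away from exons and promoters. Members were chosen by the position of the called peaks in both lines. The peak midpoint had to be more than 1 kb from every transcription start site (TSS) of a protein-coding or lncRNA transcript, inside a protein-coding gene body and outside its exons, on chromosomes 1 to 22 and X. Of 21737 U937 peaks on these chromosomes, 5106 were intronic and distal, and 2577 of those had no MV4-11 peak. Among members, 1713 were 400 bp wide or more. MV4-11 had more peaks on these chromosomes, 36356, and counts of the lines set side by side below are not scaled for this. As background, 31.4% of all U937 peaks and 50.5% of the U937 intronic distal peaks had no MV4-11 overlap. Both shares come from the comparison that defined the members and are descriptions only.

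ZNF217 was mapped in untreated U937 and MV4-11 cells, which are human myeloid leukemia lines of monocytic character. U937 carries a PICALM-MLLT10 fusion and MV4-11 a KMT2A-AFF1 fusion. Each line had 1 ZNF217 library and 1 IgG library, and the IgG libraries were not analysed here. Each line is a single established culture, so no difference between them was checked against replicates, line and library cannot be told apart, and all intervals below are 95% intervals of counting error over peaks or genes. The lists hold positions on hg38 without heights or counts, so depth is unknown.

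ZNF217 is a zinc finger protein that works largely as part of CoREST and CtBP corepressor complexes, together with the demethylase LSD1. Distal elements inside introns are a common place for enhancers, where lineage factors such as PU.1, RUNX1 and C/EBP proteins bind in myeloid cells, often with the signal-responsive AP-1 factors. Introns are also rich in repeats. Alu elements, the most abundant short repeats of primates, descend from 7SL RNA, the RNA of the signal recognition particle.

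Stretches of the hg38 plus strand show what such peaks contain. The first set is the central 300 bases of the widest member in 4 of the host genes with the most members, and capitals mark matches to any of the 24 motifs searched (named below).
CMIP: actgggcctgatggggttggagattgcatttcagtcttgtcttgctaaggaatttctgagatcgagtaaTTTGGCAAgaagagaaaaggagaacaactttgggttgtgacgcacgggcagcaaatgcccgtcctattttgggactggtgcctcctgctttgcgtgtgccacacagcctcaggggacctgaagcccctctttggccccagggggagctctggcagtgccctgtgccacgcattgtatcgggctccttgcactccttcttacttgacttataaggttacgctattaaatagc
RPTOR: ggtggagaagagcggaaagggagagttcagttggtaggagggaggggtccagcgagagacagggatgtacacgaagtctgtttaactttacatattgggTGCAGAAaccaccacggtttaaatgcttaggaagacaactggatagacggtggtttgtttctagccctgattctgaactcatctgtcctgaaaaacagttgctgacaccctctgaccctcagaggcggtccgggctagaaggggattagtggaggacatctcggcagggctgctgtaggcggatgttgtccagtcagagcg
IRAK2: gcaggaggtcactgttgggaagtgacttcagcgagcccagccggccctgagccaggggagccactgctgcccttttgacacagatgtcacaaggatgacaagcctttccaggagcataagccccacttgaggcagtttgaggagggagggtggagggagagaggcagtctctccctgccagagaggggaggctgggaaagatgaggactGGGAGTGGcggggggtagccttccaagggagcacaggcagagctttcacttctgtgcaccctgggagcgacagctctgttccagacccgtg
SASH1: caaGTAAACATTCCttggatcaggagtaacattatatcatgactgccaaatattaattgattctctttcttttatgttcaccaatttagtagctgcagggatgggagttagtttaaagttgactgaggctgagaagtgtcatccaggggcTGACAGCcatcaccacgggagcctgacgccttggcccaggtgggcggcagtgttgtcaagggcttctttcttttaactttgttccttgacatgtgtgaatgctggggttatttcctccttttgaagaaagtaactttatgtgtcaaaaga
They lie at chr16:81501177-81501476, chr17:80780294-80780593, chr3:10195756-10196055 and chr6:148392607-148392906. The CMIP stretch held 1 C/EBP match, the RPTOR stretch the ZNF217 letters, the IRAK2 stretch a KLF/SP match, and the SASH1 stretch overlapping FOX and TEAD matches and a MEIS match. All 24-letter words of these 4 stretches occurred once in the genome.

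The other set shows the widest member that carries each of the 3 motifs whose share differed most between the lines, with that motif in capitals (CAGCTG in RNF220, the RUNX letters in CDH26, the AP-1 letters in MYH6).
RNF220: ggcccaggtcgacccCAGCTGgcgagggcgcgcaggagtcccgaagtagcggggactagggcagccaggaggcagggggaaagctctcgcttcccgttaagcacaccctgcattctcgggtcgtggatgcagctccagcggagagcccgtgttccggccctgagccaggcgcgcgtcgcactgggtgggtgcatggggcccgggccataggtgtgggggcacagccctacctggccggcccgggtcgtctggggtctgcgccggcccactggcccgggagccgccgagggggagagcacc
CDH26: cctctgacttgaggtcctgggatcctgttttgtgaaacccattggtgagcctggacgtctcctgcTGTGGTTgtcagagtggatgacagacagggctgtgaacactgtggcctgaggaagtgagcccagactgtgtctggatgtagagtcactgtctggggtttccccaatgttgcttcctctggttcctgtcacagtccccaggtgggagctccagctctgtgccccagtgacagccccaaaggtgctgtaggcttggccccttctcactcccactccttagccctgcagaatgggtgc
MYH6: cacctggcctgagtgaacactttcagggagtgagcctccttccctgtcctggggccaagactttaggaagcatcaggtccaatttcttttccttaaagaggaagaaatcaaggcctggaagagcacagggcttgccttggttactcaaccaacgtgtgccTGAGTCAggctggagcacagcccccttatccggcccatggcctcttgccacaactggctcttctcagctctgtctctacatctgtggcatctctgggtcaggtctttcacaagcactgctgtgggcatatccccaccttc
These stretches are chr1:44406898-44407197, chr20:60008533-60008832 and chr14:23401298-23401597.

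The members were narrow and lay deep in genes. Their width ran from 330 to 4327 bp with a median of 451 bp, against a median of 467 bp for MV4-11 only intronic distal peaks (n = 7570) and 690 bp for the shared ones (n = 2529, counted as U937 peaks). The median distance to the nearest TSS was 7361 bp for members, 5907 bp for MV4-11 only and 5459 bp for shared peaks. The smallest U937 peak was 330 bp and the smallest MV4-11 peak 283 bp, and 1218 MV4-11 only intronic distal peaks were under 330 bp.

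Many members were close to an MV4-11 peak that they did not touch. The gap to the nearest MV4-11 peak had a median of 8806 bp, and 143 members had one within 500 bp and 1359 within 10 kb. At the edge of the rule, 35 members had an MV4-11 peak within 100 bp, the closest abutting it, while 20 shared peaks overlapped an MV4-11 peak by 50 bp or less. The member nearest to a TSS was 1003 bp away, and the farthest excluded intronic peak of U937 only was 995 bp away. The label holds with small exceptions, since 29 members fell in an exon of a gene of another class and 142 lay in more than 1 protein-coding gene, where the host was taken as the named gene with the nearest canonical TSS. Only the midpoint was placed by the rule, so a wide member could still reach an exon or a TSS.

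Members lay in the first intron more often than grid points did, but with no detectable difference from MV4-11 only peaks. The first intron of the canonical transcript held 29.9% of members (28.2 to 31.7), 28.9% of MV4-11 only peaks (27.9 to 29.9) and 35.4% of shared peaks (33.5 to 37.3). On a grid of points every 10 kb through distal introns, 20.8% fell in the first intron, and 19.9% did so within the host genes of members. The difference between members and MV4-11 only peaks was 1.04 points (-0.98 to 3.10), which includes 0, and the difference from shared peaks was -5.47 points (-8.03 to -2.90). The median GC content was 53.3% in members, 53.3% in MV4-11 only, 55.7% in shared peaks and 40% on the grid.

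ZNF217 also occupied the promoter of most host genes. A host promoter counted as occupied when a peak touched the window of 1 kb on each side of any of its TSSs. The peaks compared were not left out, so a wide member near a TSS could count as its own U937 promoter peak. In the same way an MV4-11 only peak could count in MV4-11, so the comparisons of the lines below partly follow from the rule. Among members more than 3 kb from a TSS, the share with a U937 promoter peak was 66.8%. Of the members, 69.8% (68.0 to 71.5) had a host promoter with a U937 peak, against 67.1% (66.1 to 68.2) of MV4-11 only and 77.9% (76.2 to 79.5) of shared peaks. Counted by gene, 1251 of the 1831 host genes (68.3%, 66.2 to 70.4) had such a promoter peak in U937. Over all 19970 protein-coding genes the share was 50.5%. A gene with many TSSs could count more easily, and these shares are not matched for it. For MV4-11 promoter peaks the shares were 74.6% of members and 83.3% of MV4-11 only peaks, a difference of -8.71 points (-10.6 to -6.85). A promoter peak in U937 and not in MV4-11 stood beside 144 members, and 510 members had a host promoter without a peak in either line.

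The sequence of the members differed most from that of the other classes in its repeats. A stretch of at least 30 bp that aligned to 7SL RNA, the mark of Alu-type sequence used here, was found in the central 300 bp of 923 members, or 35.8% (34.0 to 37.7). It was found in 12.6% of MV4-11 only (11.9 to 13.4), 16.3% of shared peaks (14.9 to 17.7) and 19.1% of grid windows (18.4 to 19.9). Members therefore stood 23.2 points (21.2 to 25.2) above MV4-11 only peaks and 16.7 points (14.7 to 18.7) above the grid, while MV4-11 only and shared peaks lay below the grid.

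The same contrast was present outside genes, where 30.9% of U937 only intergenic distal peaks and 12% of MV4-11 only intergenic distal peaks held such sequence. The aligned stretch in members had a median length of 75 bp and a median identity of 79.5%. No chromosome carried the pattern alone, since the share in members ran from 19.6% to 42.6% among chromosomes.

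Narrow members carried 7SL-like sequence most often. The share was 46.9% (41.1 to 52.8) in members of 330 to 349 bp, 37.4% (33.7 to 41.2) in those of 400 to 499 bp and 14.4% (9.69 to 20.8) in those of 1000 bp or more. At the same widths it was 15.9%, 12% and 11.3% in MV4-11 only peaks, so that the intervals were apart in every width class below 1000 bp and overlapped above it. Shared peaks fell with width too, from 25.8% (17.9 to 35.8) at 330 to 349 bp to 13.2% (10.8 to 16.1) at 1000 bp or more. Their intervals lay below those of the members in every width class below 1000 bp. Width therefore moved with the pattern in members and shared peaks alike. The gap between members and MV4-11 only peaks was present at equal width below 1000 bp. Whether read mapping in repeats differed between the libraries was not tested, since the lists hold no reads.

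**Figure D1:**
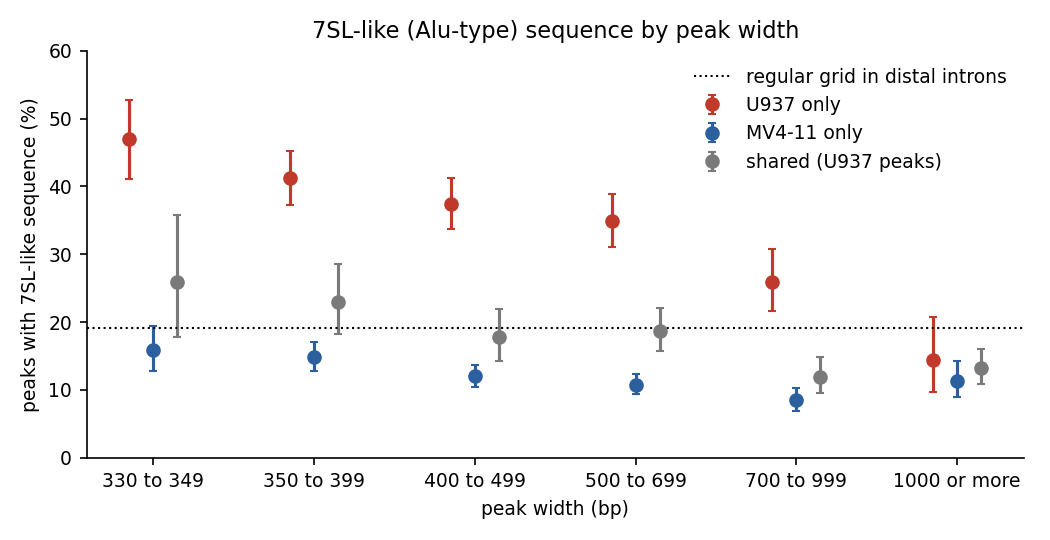
Percent of peaks with 7SL-like (Alu-type) sequence in the central 300 bp (y axis) by peak width in bp (x axis) for U937 only, MV4-11 only and shared intronic distal peaks, with 95% Wilson intervals as bars. The U937 only points fall from 46.9% to 14.4% with width and lie above the dotted grid level of 19.1% in every class below 1000 bp, while the MV4-11 only points lie below it throughout. The shared points fall from 25.8% to 13.2% and lie above the grid level below 400 bp, with intervals that include it.

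A count of 24-letter words in the genome gave the same picture without naming a repeat. Windows in which at least 50% of the words occurred 100 times or more made up 11.0% of members, 1.86% of MV4-11 only peaks, 3.20% of shared peaks and 5.60% of the grid. At the other end, all words occurred once in 42.7% of members, against 57.8% of MV4-11 only, 61.4% of shared peaks and 42.6% of the grid. By this measure members were close to the grid, and MV4-11 only and shared peaks lay above it. Members without 7SL-like sequence were wider, with a median of 474.5 bp against 426 bp for those with it.

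A second repeated sequence was found among the other members, by looking for the member whose words recurred in most others. A member of 339 bp in intron 2 of MBD5 shared words with 29 other members, and 38 members in 38 host genes aligned to it, with a median of 221 bp aligned at 90.6% identity. It was chosen on the members, so its counts are a description. It was found in 16 of 7570 MV4-11 only peaks, 1 of 2529 shared peaks and 11 of 10662 grid windows, and also in 70 of 2314 U937 only and 23 of 6770 MV4-11 only intergenic distal peaks.

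The hosts of these 38 members were long genes, with a median length of 229 kb beside 96.1 kb over the hosts of all members. They included SLC25A24 (chr1:108167277-108167622), a mitochondrial carrier gene, DNAH7 (chr2:195744014-195744471), an axonemal dynein gene, and LAMA2 (chr6:128998526-128998864), a laminin gene. The LAMA2 member aligned over 282 bp at 98.9% identity. Only 4 of the 38 lay in the first intron, and 21 had a host promoter peak in U937.

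Beyond repeats, the transcription factor motifs of the members differed from those of MV4-11 only peaks for 11 of 24 motifs, 3 higher and 8 lower. Motifs were searched as fixed letters on both strands of the central 300 bp. A match describes the sequence only.

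The AP-1 letters TGAGTCA, bound by FOS and JUN family dimers, were in 295 members in 269 genes. This was 11.4% of members (10.3 to 12.7), against 7.44% of MV4-11 only peaks (6.87 to 8.05), a difference of 4.01 points (2.69 to 5.42). The letters were in 316 of 2529 shared peaks and 4.43% of grid windows. The members thus resembled the shared peaks in this motif, from which they differed by -1.05 points (-2.83 to 0.73), an interval that includes 0. The FOX letters GTAAACA were in 3.76% of members, 2.36% of MV4-11 only, 1.70% of shared peaks and 4.82% of the grid, and 26 of the 97 members with them carried the second repeat.

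The motif of RUNX factors, central regulators of blood cell identity, was less frequent in members. Its letters TGTGGTT were in 6.09% of members (157), 10.3% of MV4-11 only peaks, 9.09% of shared peaks and 5.69% of the grid. The difference was -4.19 points (-5.30 to -2.99) from MV4-11 only peaks and 0.40 points (-0.47 to 1.40) from the grid, an interval that includes 0. The E-box with the letters CAGCTG was in 17.4% of members, 24% of MV4-11 only peaks, 24% of shared peaks and 9.74% of the grid, a difference of -6.59 points (-8.31 to -4.81) from MV4-11 only. The other E-box searched, with the letters CACGTG, did not differ from MV4-11 only beyond its interval (-0.80 points, -1.84 to 0.32).

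PU.1, ETS-IRF, ISRE and CTCF motifs were also less frequent in members than in MV4-11 only peaks, whereas C/EBP did not differ beyond its interval. PU.1, the master ETS factor of the myeloid lineage, had its letters GAGGAAGT in 3.34% of members and 4.98% of MV4-11 only peaks (-1.64 points, -2.45 to -0.75), beside 1604 of 106614 grid windows. The composite site of ETS and IRF factors was in 6 members (0.233%) and 1.57% of MV4-11 only peaks, and the interferon-response element ISRE was in 0 of 2577 members, which allows a share of up to 0.116% by the limit of 3 counts and 0.149% by the Wilson interval, and 0.515% of MV4-11 only peaks. CTCF, the insulator protein, had a site in 13 members (0.504%) and in 1.39% of MV4-11 only peaks, beside 0.103% of the grid.

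The remaining calls were MEIS, MYB and KLF/SP. MEIS letters (TGACAGC) were in 4.66% of members and 6.34% of MV4-11 only peaks, and MYB letters (TAACNGA) in 3.76% and 5.13% in the same order. KLF/SP letters (GGGNGTGG) were in 18.3% of members and 16.2% of MV4-11 only peaks (2.07 points, 0.39 to 3.81). Among peaks of 400 bp or more, the differences in KLF/SP (1.25 points, -0.78 to 3.38) and MYB (-1.05 points, -2.12 to 0.16) had intervals that included 0. The ZNF217 letters TGCAGAA were in 6.40% of members, 6.78% of MV4-11 only and 6.48% of shared peaks, beside 6.81% of the grid, with a difference of -0.37 points (-1.43 to 0.77) from MV4-11 only. C/EBP letters (TTGCNNAA) differed by -0.05 points (-1.48 to 1.46), GATA letters (AGATAAG) by -0.55 points (-1.17 to 0.17), and ETS (CCGGAAG), CREB/ATF (TGACGTCA), NF-kB, HOX-PBX (TGATTNAT), MEF2, STAT (TTCCNGGAA), TEAD (GGAATGT), nuclear receptor (AAGGTCA) and GFI1 (AAATCACNG) motifs also had intervals that included 0.

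Leaving out the 7SL-like peaks in both lines, an alternative chosen after the data were seen, widened the AP-1 contrast and removed others. Without them AP-1 was in 13.2% of 1654 members, 7.59% of 6614 MV4-11 only and 13.3% of shared peaks, a difference of 5.65 points (3.97 to 7.48) from MV4-11 only. NF-kB then differed as well, with 7.38% of members and 5.96% of MV4-11 only peaks (1.42 points, 0.11 to 2.89). RUNX, CAGCTG, PU.1, ETS-IRF, ISRE and CTCF still had lower shares in members, while KLF/SP, MEIS and MYB had intervals that included 0. The CAGCTG difference shrank to -3.03 points (-5.25 to -0.72), smaller than that of RUNX at -3.46 points (-4.85 to -1.93). The KLF/SP difference turned to -0.73 points (-2.59 to 1.26). With the second repeat also left out, NF-kB (0.80 points, -0.46 to 2.23) and PU.1 (-1.14 points, -2.19 to 0.07) no longer differed beyond their intervals.

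**Figure D2:**
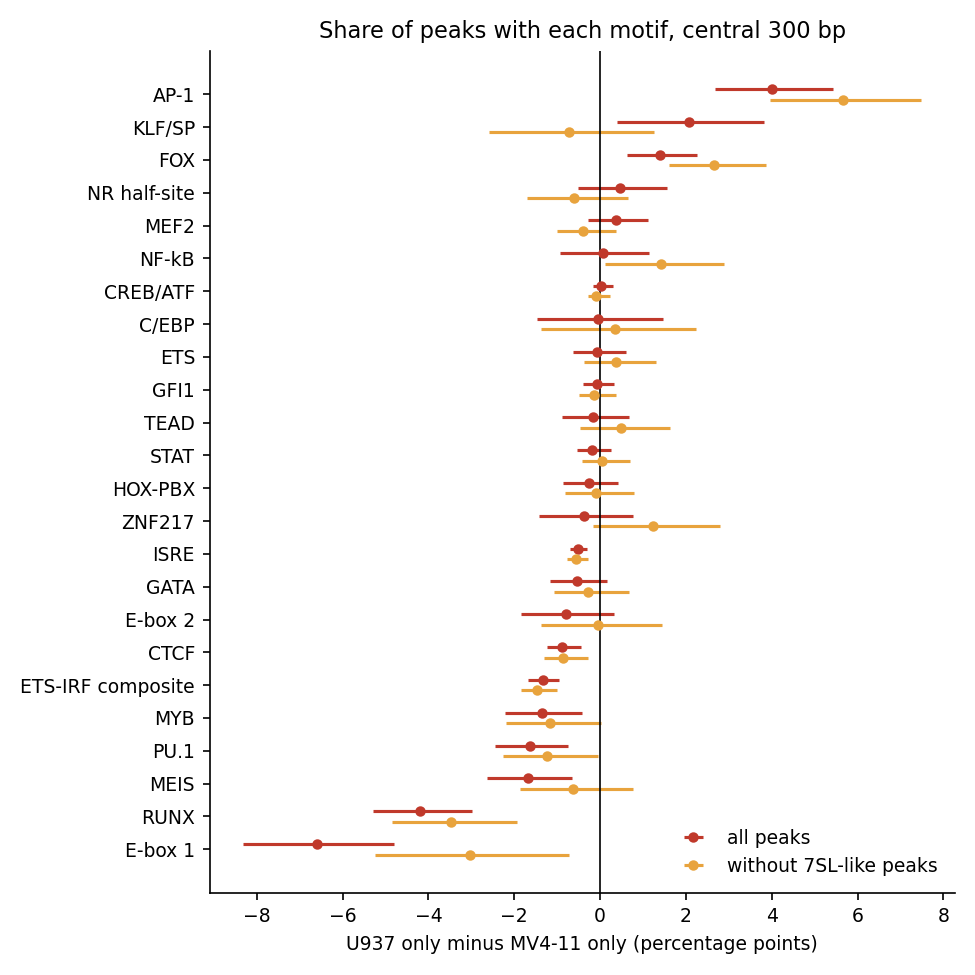
Difference in the share of peaks with each motif in the central 300 bp, U937 only minus MV4-11 only, in percentage points (x axis) for 24 motifs (y axis), with 95% Newcombe intervals, for all peaks and without 7SL-like peaks; E-box 1 has the letters CAGCTG and E-box 2 the letters CACGTG. AP-1 lies to the right of 0 at 4.01 points and at 5.65 points without 7SL-like peaks, RUNX and E-box 1 lie to the left in both, and KLF/SP changes side.

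The AP-1 motif was more frequent in wide members, and in wide shared peaks as well. It was in 6.83% of the 864 members under 400 bp (5.33 to 8.71), 11.9% of the 1206 members of 400 to under 700 bp (10.2 to 13.8) and 18.3% of the 507 members of 700 bp or more (15.2 to 21.9). In MV4-11 only peaks of 330 to under 400 bp, 400 to under 700 bp and 700 bp or more it was in 7.34%, 7.94% and 6.44%. Shared peaks had it in 21 of 341, 118 of 944 and 177 of 1244 in the same width classes, the last a share of 14.2% (12.4 to 16.3), and their intervals overlapped those of the members in each class. The intervals of members and MV4-11 only peaks overlapped for the narrow peaks and were apart for the others. RUNX showed no such widening with width in members, at 4.86%, 6.72% and 6.71% over the same classes.

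Where the AP-1 letters lay depended on the width of the member. In members of 700 bp or more, the share with the motif per 100 bp was highest next to the midpoint, 5.92% from -100 to 0 bp and 8.88% from 0 to 100 bp, against 3.35% from -300 to -200 bp and 2.37% from 200 to 300 bp. In members under 400 bp the order was turned round. The share was 1.39% (0.80 to 2.41) from -100 to 0 bp and 2.20% (1.41 to 3.41) from 0 to 100 bp, but 5.56% (4.22 to 7.29) from -300 to -200 bp and 5.21% (3.92 to 6.90) from 200 to 300 bp. Since these members reach less than 200 bp to each side of the midpoint, the last bins lie outside the called peak. Of 1498 MV4-11 only peaks of 330 to under 400 bp, 48 and 36 had the motif in the bins beside the midpoint and 30 and 45 in the outer bins. Of 341 shared peaks under 400 bp, 8 and 6 had it beside the midpoint and 13 and 13 in the outer bins, with overlapping intervals.

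**Figure D3:**
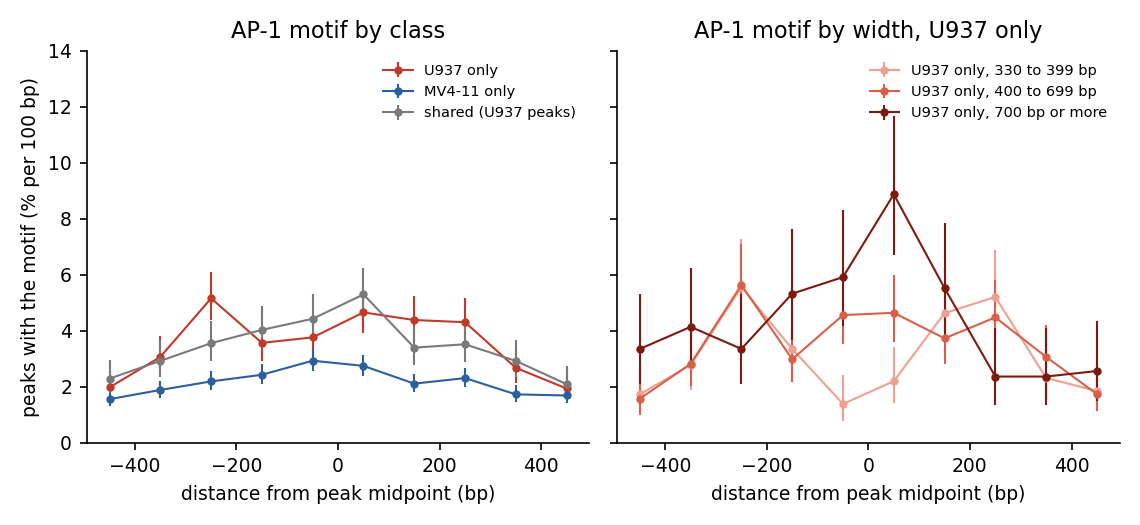
Percent of peaks with the AP-1 motif per 100 bp (y axis) by distance from the peak midpoint in bp (x axis), with 95% Wilson intervals: left, U937 only, MV4-11 only and shared peaks; right, U937 only peaks by width. In the narrowest members the share dips to 1.39% beside the midpoint and reaches 5.56% between 200 and 300 bp away, whereas in members of 700 bp or more it peaks at 8.88% beside the midpoint.

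Most host genes held a single member, and a few held many. The 2577 members lay in 1831 protein-coding genes, 9.17% of all, and MV4-11 only intronic distal peaks in 3909, or 19.6%. Of these hosts 1392 had 1 member, 286 had 2 and 153 had 3 or more. The 153 genes held 23.8% of members. Of the 1831 hosts, 874 (47.7%) also hosted an MV4-11 only peak, which was 22.4% of the MV4-11 only hosts, and 815 (44.5%) had no MV4-11 intronic distal peak. Long genes hosted members more often, 20.6% of the 3994 genes with the longest distal introns and 0.401% of the 3994 with the shortest. The latter had a median of 0 kb of distal intron, so many of them had no place for a member. Per Mb of distal intron the order was turned round. From the shortest to the longest of 5 classes there were 8.78, 5.48, 5.33, 3.71 and 1.54 members per Mb. The shares of host genes therefore do not show a preference for long genes.

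CMIP, which encodes an adaptor protein linked to T-cell signalling, held 14 members, the most of any gene, with 10 MV4-11 only and 7 shared peaks. Of the 14, 9 lay in its first intron, none was 7SL-like, and the widest was chr16:81500776-81501877 (1101 bp). RPTOR, which encodes the raptor subunit of mTORC1, held 10 members with 7 MV4-11 only peaks, and 4 of its members carried the AP-1 letters. COL23A1, a transmembrane collagen gene, held 10 members, all in intron 2, and 13 MV4-11 only peaks, and its promoter had an MV4-11 peak and none in U937.

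IRAK2, a kinase gene of interleukin-1 and Toll-like receptor signalling, held 9 members in only 74.5 kb of distal intron. That was 121 per Mb, beside 2.33 members per Mb over all genes. IRAK2 was also dense in MV4-11 only peaks, with 5 (67.1 per Mb, beside 6.84 over all genes), and had 2 shared peaks. It was named for its many members, so a high density of members was partly fixed in advance. Its widest members were chr3:10194928-10196882 (1954 bp) and chr3:10192026-10193374 (1348 bp), 3 of the 9 were 7SL-like, and its promoter had no peak in either line. SASH1, a scaffold protein gene of Toll-like receptor signalling, had 9 members and 1 MV4-11 only peak, the largest imbalance among the genes named here with the most members. In SASH1, 5 of 9 were 7SL-like. RBM47, an RNA-binding protein gene, had 7 members, all in its first intron and 5 of them 7SL-like, with 2 MV4-11 only peaks.

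ZMIZ1, a coactivator gene, had 9 members and more MV4-11 only (16) and shared (15) peaks than members. RASA3, a Ras GTPase-activating protein gene, had 7 members with 9 MV4-11 only and 12 shared peaks, and RAPGEF1, a Rap1 exchange factor gene, had 7 members with 6 MV4-11 only and 3 shared peaks. These genes were rich in peaks of both lines. No member in CMIP, RPTOR, COL23A1, ZMIZ1 or RASA3 was 7SL-like. Other repeated sequence was present in some of them, since only 44.8% of the words of an RPTOR member, 50.5% of those of a RASA3 member and 0% of those of the widest COL23A1 member occurred once.

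**Figure D4:**
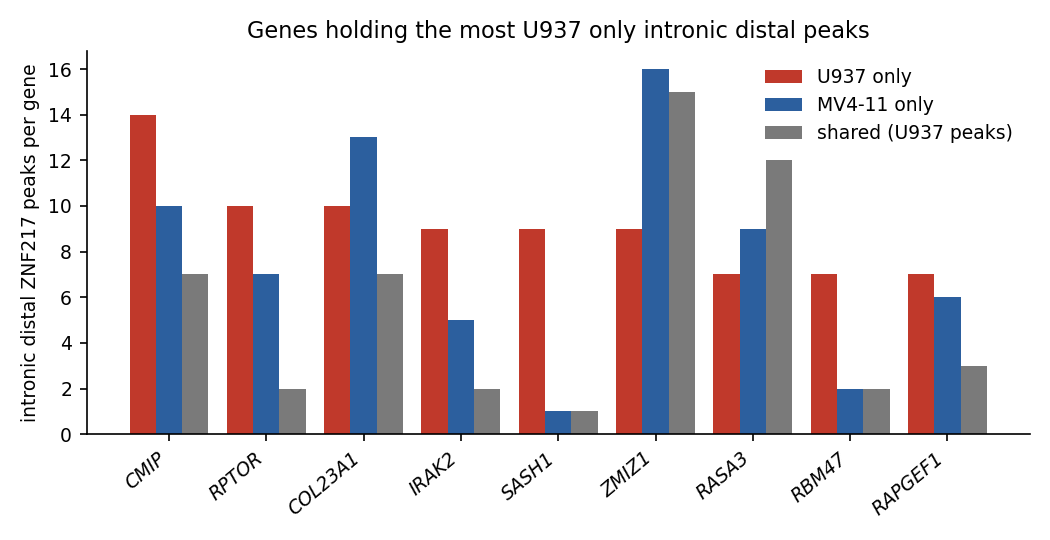
Number of intronic distal ZNF217 peaks per gene (y axis, bars from 0) in 9 of the 10 genes with the most U937 only peaks (x axis), split into U937 only, MV4-11 only and shared peaks. SASH1 has 9 U937 only peaks against 1 MV4-11 only, while COL23A1, ZMIZ1 and RASA3 have more MV4-11 only than U937 only peaks.

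Among the 153 hosts with 3 or more members, 19 had no MV4-11 intronic distal peak. RAB11FIP4, a Rab11 effector gene, had 5 members of 343 to 840 bp without a promoter peak in either line. RNF220, an E3 ubiquitin ligase gene, had 4, including the widest member of all at chr1:44404884-44409211 (4327 bp, intron 1, midpoint 1654 bp from a TSS) and another of 2180 bp. The widest member reached over that TSS, since the rule placed the midpoint only. IMPA2, an inositol monophosphatase gene, had 4 members in 38.3 kb of distal intron, and TMEM38A, a channel gene of the sarcoplasmic reticulum, 4 in 25 kb.

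The 10 widest members were clear of Alu-type sequence in their central 300 bp, and the rest of these peaks was not searched for it. None was 7SL-like there, and in all 10 at least 99.6% of the words of the central 300 bp occurred once. After RNF220 came PTPRN2 (chr7:157668489-157671775, 3286 bp), a receptor phosphatase-like gene of secretory granules, RASA3 (chr13:114054777-114057424, 2647 bp), ZBTB17 (chr1:15949275-15951866, 2591 bp), which encodes the MYC partner MIZ1, and BIN1 (chr2:127066312-127068748, 2436 bp), a membrane-curvature gene. LRPAP1, ACOT11, TTC39A, TP73, a p53 family gene, and RNF220 again held the others, at 1994 to 2305 bp. The promoter of 8 of the 10 had a peak in U937, the exceptions being PTPRN2 and TP73. For RNF220 the widest member could itself be that peak.

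Members seldom formed groups. With members joined at the stitching distance customary for super-enhancers, 1916 stood alone, and 65 groups of 3 or more held 221 members. In 31 of these groups no MV4-11 peak lay in the span. The largest was in SASH1 (chr6:148363015-148393488), with 7 members in 30.5 kb, 4 of them 7SL-like, and 1 MV4-11 peak. IRAK2 had 6 members in 32.7 kb with 4 MV4-11 peaks. ZMIZ1 had 5 in 19.1 kb with 4, and PTPRJ, a receptor phosphatase gene (CD148) of blood cells, had 5 in 14.4 kb with none.

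Gene lists of the lineage showed mostly scattered members, and with 9.17% of all genes hosting a member, the length of a list's introns has to be read beside its count. Of 30 myeloid transcription factor genes, 9 hosted 19 members, against 80 MV4-11 only peaks, with a median of 16.8 kb distal intron. RUNX1 held 7, of 354 to 545 bp, with 18 MV4-11 only and 7 shared peaks. ETV6, an ETS repressor gene, held 3, FLI1 and IKZF1 (Ikaros) 2 each, and SPI1, which encodes PU.1, had 1 at chr11:47374677-47375050 with no MV4-11 only peak and 3 shared ones.

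The NF-kB and inflammatory list was the only one of the 16 lists with more members than MV4-11 only peaks. Of its 26 genes, 6 hosted 8 members, against 3 genes and 3 MV4-11 only peaks, 13.2 and 4.94 per Mb of distal intron. The list had a median of 6.97 kb distal intron. All genes had 2.33 and 6.84 per Mb, and the fifth of genes next to the shortest (median 5.55 kb) had 5.48 and 31.0. Of the 8 members, 5 were 7SL-like, and 3 of the 6 hosts held a member that was not. TNFAIP8 held 3, and NFKB2, REL, NFKBIZ, TRAF1 and TRAF3 held 1 each, of which the TRAF1 member was 1268 bp wide (chr9:120904615-120905883). Counts of this size are small, and IRAK2 was not on the list.

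Phagocyte genes hosted 11 members in 7 of 40 genes, against 19 MV4-11 only peaks, and 2 of the 11 were 7SL-like. The common leukocyte integrin chain ITGB2 (CD18) had 4 members in 25.6 kb of distal intron, 1 of them 7SL-like, with 1 MV4-11 only and 1 shared peak. The scavenger receptor gene MSR1 had 2 and no MV4-11 intronic distal peak. Both MSR1 members were repeats, 1 being 7SL-like and the other carrying the second repeat. CD36, MARCO, TLR1 and SIRPA had 1 member each. Of 37 integrin and actin genes, 12 hosted 22 members, including PREX1 with 4 and PTK2B with 3. These genes had a median of 77.3 kb distal intron and 73 MV4-11 only peaks, and 9 of the 22 members were 7SL-like. Per Mb of distal intron they held 3.36 members and 11.1 MV4-11 only peaks, beside 2.33 and 6.84 over all genes. Cytokine receptor and JAK-STAT genes hosted 5 members in 4 of 31 genes, namely IL1R1 (2), IL6R, IL10RB and STAT3.

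Of 13 genes of the KMT2A and PICALM fusions, 5 hosted 8 members, against 31 MV4-11 only peaks. NUP98 had 3 and no MV4-11 intronic distal peak, ELL had 2, and MLLT10, AFF3 and DOT1L had 1 each, with 5 of the 8 7SL-like. Among recurrently mutated AML genes, 6 of 32 hosted 8 members, in DNMT3A, ASXL1, EZH2, SETBP1, CUX1 and, with 3, ETV6, and 4 of the 8 were 7SL-like. Only 2 of 20 stem cell and HOX genes hosted any, MYB at chr6:135207950-135208453 and ZFPM2, with 2 members against 23 MV4-11 only peaks. The MYB member was 7SL-like. Of 13 circuit factors and candidates named in the study, 3 candidates (ETV6, RARA and ERG) held 5 members, none of them 400 bp wide, and ZNF217, ELF1, MEF2D, RUNX2 and FOXP1 held none.

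The other lists were used for contrast. Corepressor and Polycomb genes held 16 members in 5 of 27. Phosphoinositide signalling genes held 13 in 9 of 28, with 3 in PIK3CD, and interferon genes 4 in 3 of 28. The phosphoinositide genes had a median of 118 kb distal intron, 2.30 members per Mb and 72 MV4-11 only peaks. T-cell genes (1 of 25), B-cell genes (2 of 25), erythroid and megakaryocyte genes (3 of 25) and neuronal genes (5 of 25) held 1, 2, 4 and 8 members. The neuronal genes had a median of 1230 kb distal intron and only 0.244 members per Mb.

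The balance of the lines differed among chromosomes. Over all, there were 0.340 members for each MV4-11 only peak (0.325 to 0.356), and 0.250 without 7SL-like peaks. The MV4-11 list was the larger, with 36356 peaks against 21737 in U937, and the ratio was not scaled for this. The ratio was highest on chromosomes 13 (0.675, 0.501 to 0.906), 14 (0.554, 0.425 to 0.719) and 18 (0.531, 0.372 to 0.750), and lowest on 19 (0.148, 0.122 to 0.177), X (0.188, 0.113 to 0.298) and 22 (0.227, 0.167 to 0.304). Chromosome 19 held 132 members, 5.87 per Mb of distal intron and the highest density, but 894 MV4-11 only peaks. Without 7SL-like peaks the ratio was 0.602 on chromosome 13 and 0.113 on 19. Copy number of the lines was not tested.

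**Figure D5:**
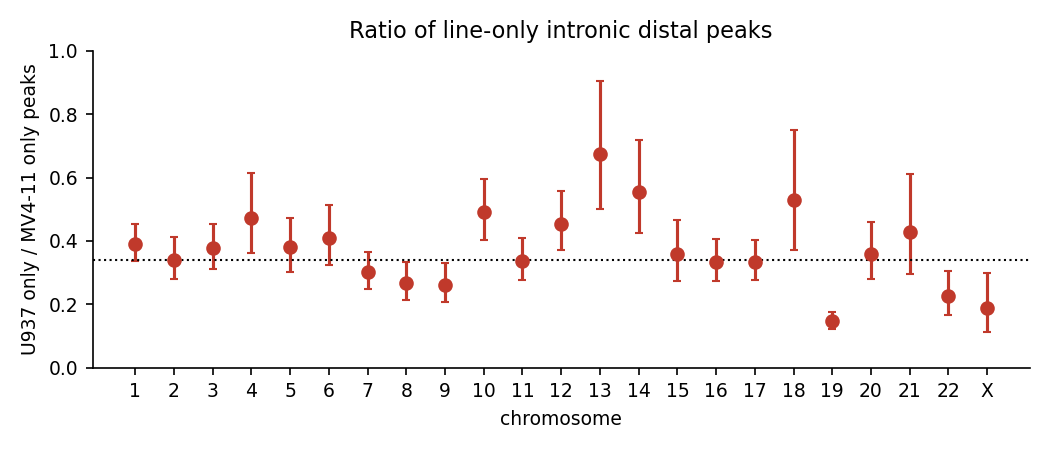
Ratio of U937 only to MV4-11 only intronic distal peaks (y axis) by chromosome (x axis), with exact 95% intervals and the ratio over all chromosomes (0.340) as a dotted line. Chromosomes 4, 10, 12, 13, 14 and 18 lie above the line and 8, 9, 19, 22 and X below it, each with an interval clear of it.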

How the data were processed

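ZNF217 CUT&Tag peak lists of U937 and MV4-11 were used, with 1 library per line. The authors aligned reads to hg38 with Bowtie2 2.4.4 and, as the methods and the submitters' processing notes state, called peaks per library with MACS3 3.0 on paired-end fragments at a q-value of 0.01. Use of IgG as control, removal of duplicates, filters on mapping quality and blacklisted regions were not given in the sources used here. The deposited values are chromosome, start and end in bp, with no count or signal. Starts were read as counted from 0, and positions are uncertain by 1 bp. Sequence and annotation came from the hg38 reference and GENCODE 44.

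Members, lists and alternatives were chosen with earlier results of these data known. Shares have Wilson and differences Newcombe 95% intervals, ratios exact (Clopper-Pearson) intervals, and no p-value was calculated. 7SL-like sequence was found with blastn (BLAST+ 2.17.0, E 1e-5, at least 30 bp) against RN7SL1, and the second repeat at E 1e-10. Words of 24 letters were counted over the whole reference. The grid had 106614 points every 10 kb, with repeat measures at 10662. Named genes were the 10 hosts with most members, hosts of the 10 widest, the 5 largest groups and up to 6 hosts of each list, and some of these genes and sequences are not reported here. SLC25A24, DNAH7, LAMA2, MBD5, RAB11FIP4, IMPA2 and TMEM38A were named after their values were seen, and so were the position and width profiles of AP-1. Calculations, tested on simulated data, ran in Python 3.11.15 with SciPy 1.17.1, pandas 2.3.3 and NumPy 2.4.6. Matplotlib 3.10.9 made the plots, and samtools 1.23.1 indexed the reference.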

Additional observations from a re-analysis of the deposited data

How the results depend on the processing

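No paired analysis was possible because each line had 1 library. Settings other than the definitions used above gave the following. The number of members (2577) was 1713 at 400 bp or more, 1973 at 3 kb from a TSS and 2434 with no MV4-11 peak within 500 bp. It was 3016 when 50% of the peak had to be covered. Against as many of the widest MV4-11 peaks as there are U937 peaks it was 3189. Without 7SL-like peaks and without both repeats, settings added after the data were seen, it was 1654 and 1616. The number of host genes (1831) was 1279, 1421, 1752, 2033, 2140, 1193 and 1157 in the same order of settings. The percent of U937 intronic distal peaks without an MV4-11 peak (50.5%) was 47.7% with a margin of 500 bp, 59.1% when 50% of the peak had to be covered, 53.4% at 3 kb from a TSS, 43.9% at 400 bp or more, 62.5% against as many of the widest MV4-11 peaks as there are U937 peaks, and 43.8% and 43.3% without the repeats. The share with an occupied host promoter (69.8%) was 59.6% with 1 TSS per gene, 66.8% at 3 kb, and 67.4% and 67.6% without the repeats. The first-intron share (29.9%) was 27.9% without 7SL-like peaks, and the median GC content (53.3%) was 53.5% over the whole peak and 55.3% without either set of repeats. The 11 differing motifs were 7 without both repeats and 9 to 12 in all other settings. The 7SL-like share of members (35.8%), a result added after the data were seen, was 32.2% at 400 bp or more, 33.6% against the widest MV4-11 peaks and 27.7% when 60 bp had to align. KLF/SP turned to -0.73 points without 7SL-like peaks and -0.85 points without both repeats. The planned limit on soft-masked repeats was not run, because the reference used holds upper case letters only. Depth is unknown, and no replicate was there to show how many peaks a second library would share.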
